A study of Mus musculus with 8 samples.

Results

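Lipid reaches the adipocyte as triglyceride in circulating lipoproteins or as fatty acid bound to albumin. Lipoprotein lipase releases fatty acids from the lipoproteins, membrane proteins help them to enter, binding proteins carry them in the cytosol, and acyl-CoA synthetases activate them by attachment to coenzyme A, the step that commits them to storage or oxidation. Fat cells are known for high levels of several of these proteins, and insulin is a known regulator of the pathway. The genes described here were 10 listed members of this route, chosen by symbol: Lpl, Angptl4, Vldlr, Cd36, Fabp4, Fabp5, Slc27a1, Acsl1, Acsl3 and Acsl4. Of these, 9 of 10 were measured through a named probe set, among 18193 genes in all. Acsl1 was not analysed here.

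Levels were read on 8 Affymetrix mouse genome arrays of 3T3-L1 adipocytes, fat cells differentiated from a mouse fibroblast line, made insulin resistant in 3 ways. The chronic insulin model is called CI (2 arrays), the tumour necrosis factor model TNF (3 arrays) and the dexamethasone model, after the synthetic glucocorticoid, Dex (3 arrays). All 8 samples had also received the antioxidant MnTBAP for the last 6 hours of treatment. No untreated cells and no samples without MnTBAP were analysed here, so each difference is between 2 models, and a lower value in TNF or Dex can equally be a higher value in CI. The cells are 1 established line, and the labels name no separate cultures within a model. The p-values therefore reflect the spread between these samples alone, and that spread may be technical.

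Each gene was represented by its probe set, a group of array probes, with the highest mean. Levels and differences are in log2 intensity, differences carry the standard error (SE) of limma's fit, and adjusted p-values are Benjamini-Hochberg values over all genes. A gene is said to rise or fall, or to be called, only where the adjusted p fell below 0.05 and the size of the difference was above 0.5. Values of the same gene were compared between arrays, whereas levels of different genes were not, because probe sets differ in brightness.

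The arrays were alike in scale, with median intensities from 124.7 to 131.0 and Pearson's r of 0.9958 to 0.9978 within a model and 0.9856 to 0.9910 between models. The label for tissue reads preadipocytes, although the source is given as adipose cells. Among adipocyte markers 7 of 8 measured lay above the median gene in every model, all but the hormone Lep. Their summed intensity was 77949 to 78321 in CI, 54224 to 56697 in TNF and 71756 to 76123 in Dex. Of the 8, 6 were called as lower in TNF than in CI (5.23% of all genes). In Dex 3 were called as lower than in CI (5.67%), and 2 were lower in TNF than in Dex (3.16%). None was called as higher in these comparisons. The preadipocyte markers were also present, with sums of 33450 to 34302, 36126 to 41761 and 25733 to 28686 in CI, TNF and Dex. All but Cd34 lay above the median gene. Of 9 measured, 3 were called as higher in TNF than in CI (3.00% of all genes). A further comparison, TNF against Dex, had 5 called as higher in TNF (4.14%), and neither had any called as lower. In Dex against CI 1 was called as higher (3.33%) and 3 as lower (5.67%). Macrophages and endothelial cells also express several of the 10 genes. Of 10 macrophage markers 7 lay below the median gene in each model, all but Csf1r, Cd14 and Lyz2. The summed level was 2462 to 2478 in CI, 3659 to 3888 in TNF and 2424 to 2507 in Dex. Cd14 averaged 8.06 in CI, 9.50 in TNF and 9.03 in Dex and was called as higher in TNF and in Dex than in CI. Lyz2 averaged 10.49, 11.04 and 10.09 in the same order and was called as higher in TNF than in CI and than in Dex. Of 8 endothelial markers 7 lay below the median gene, all but Kdr, with sums of 754 to 801, 838 to 880 and 789 to 864. In bulk samples fewer cells of a type and less RNA per cell cannot be told apart. The part of these shifts in the results below was not tested.

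Several of the genes sat close to the top of the scale, where differences may be compressed, which was not tested. The highest intensity of an array was 22432.5 to 24273.6, or 14.45 to 14.57 on the log2 scale. Fabp4 lay 0.06 to 0.20 log2 units below the maximum of its own array, Lpl 0.27 to 0.37 and Fabp5 0.60 to 0.91. Cd36 lay 0.98 to 1.27 below it, and only CI replicate 1 was within 1 unit. The remaining 5 genes lay at least 2.82 units below the maximum on each array.

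**Figure D1:**
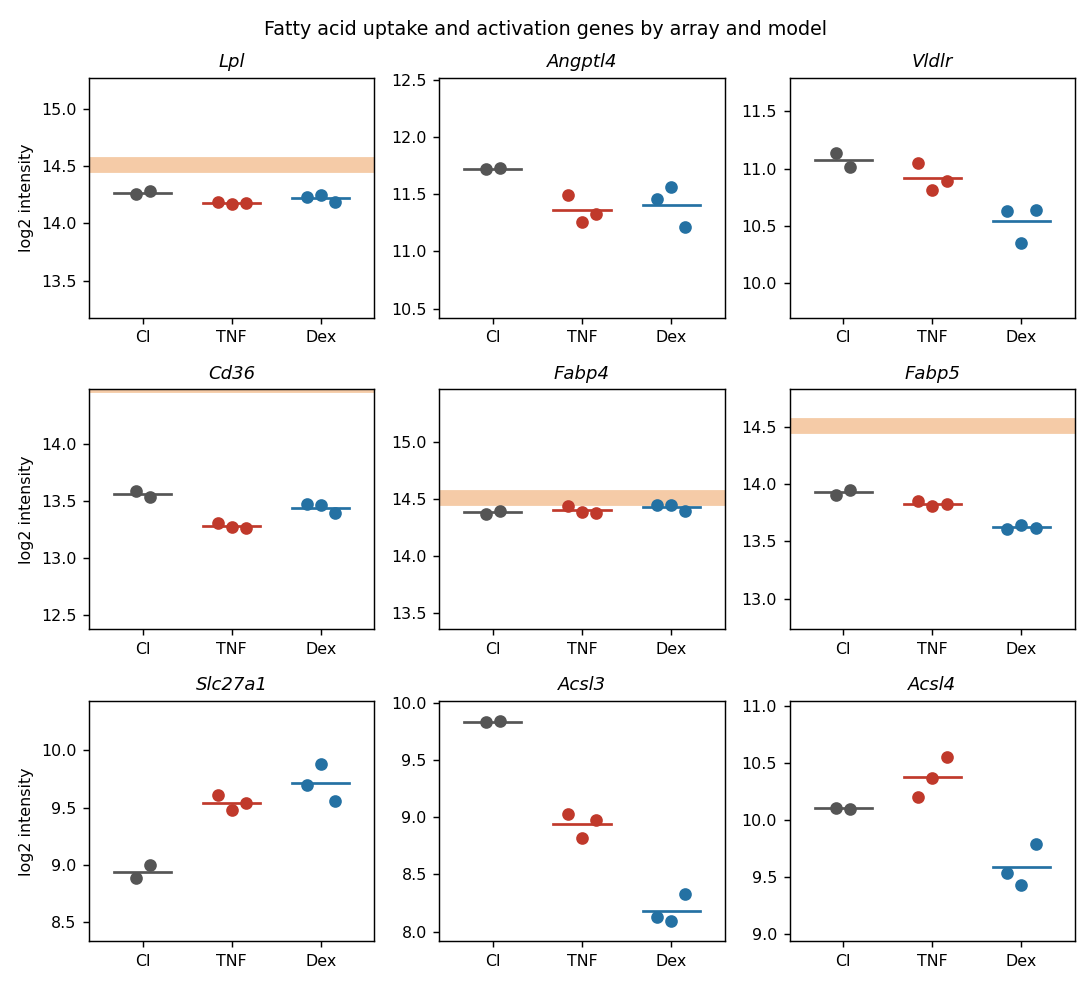
Log2 intensity (vertical axis, the same span in each panel) of the 9 measured genes in each of the 8 arrays, grouped by model, with a line at each model's mean and a shaded band over the range of array maxima (14.45 to 14.57). Acsl3 stepped down from 9.83 in CI to 8.94 in TNF and 8.18 in Dex on average, whereas Fabp4 averaged between 14.39 and 14.44, at the lower edge of the band.

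The comparisons asked which steps of fatty acid uptake and activation differed between the models. The members called were the synthetases Acsl3 and Acsl4, the transport protein Slc27a1 and the receptor Vldlr. Acsl3 fell in TNF against CI and further in Dex, and Slc27a1 rose in both against CI. Acsl4 was higher in TNF than in Dex, but neither of its other probe sets was called there. Acsl4 and Vldlr were lower in Dex than in CI by differences close to the threshold. Between TNF and CI 2 of 9 members were called, against 8.22% of all genes, with 1 member higher in TNF (3.00% of all genes) and 1 lower (5.23%). Between Dex and CI 4 of 9 were called, against 9.00% of all genes, with 1 member higher in Dex (3.33%) and 3 lower (5.67%). Between TNF and Dex 2 of 9 were called, against 7.30% of all genes, both higher in TNF (4.14%) and none lower (3.16%). The median difference over the 9 members was -0.10, -0.31 and -0.03 in this order, beside medians of 0.03, 0.02 and 0.01 over all genes. The values of the models did not overlap for 7, 8 and 5 of the 9 genes, against 53.0%, 48.0% and 35.9% of all genes. The first and second comparisons share the CI arrays, and the others share TNF or Dex arrays, so they are not independent.

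**Figure D2:**
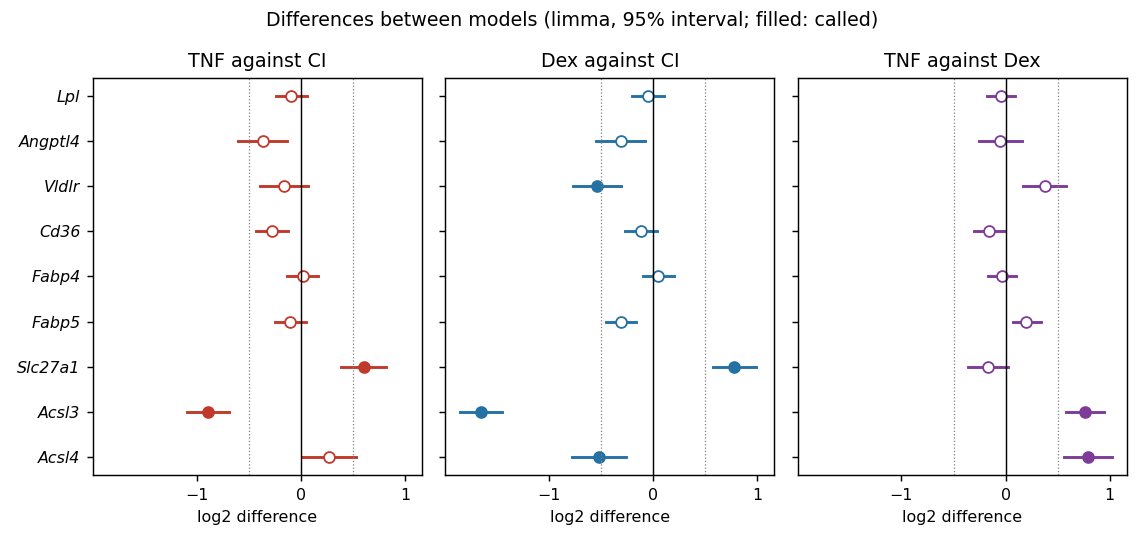
Log2 difference (horizontal axis) of the 9 genes in each of the 3 comparisons, with 95% intervals from limma. Filled points were called, dotted lines mark differences of 0.5 in either direction, and the point farthest from 0 is Acsl3 in Dex against CI at -1.65.

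Acyl-CoA synthetases of the long-chain family (ACSL) activate fatty acids. ACSL3 is found at the endoplasmic reticulum and on growing lipid droplets. Acsl3 lay at 9.83 and 9.84 in CI, at 9.03, 8.82 and 8.98 in TNF, and at 8.13, 8.09 and 8.33 in Dex. The 3 models did not overlap, in the order CI, TNF, Dex, and each step exceeded the spread within the models. The gene fell in TNF against CI by 0.89 ± 0.09 (limma adjusted p = 7.00e-05) and differed by -1.65 ± 0.09 in Dex against CI (adjusted p = 3.97e-07), a level 3.14-fold lower. It was 1.70-fold higher in TNF than in Dex (0.76 ± 0.08, adjusted p = 5.86e-05). Ranked by size among 18193 genes, its difference stood at place 142 for Dex against CI and at place 352 for TNF against CI. The probe set that represents it has a name of the type that can also match related transcripts. Both other probe sets had the same direction in all 3 comparisons. The brighter of them differed by -0.54 ± 0.10 (TNF against CI), -1.51 ± 0.10 (Dex against CI) and 0.97 ± 0.09 (TNF against Dex), and was called each time, although its level in Dex lay below the median probe set. The dimmest, at 4.86 to 5.58 and below the median probe set, differed by -0.14, -0.53 and 0.38 and was called for Dex against CI. At such levels the size of a difference is uncertain, as background was not measured.

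ACSL4 is known for its preference for arachidonic acid, the precursor of prostaglandins. Acsl4 lay at 10.11 and 10.10 in CI, at 10.20, 10.37 and 10.55 in TNF, and at 9.54, 9.43 and 9.79 in Dex. The order was TNF, CI, Dex, with no overlap, but the arrays of TNF and of Dex were spread over more than the gap from TNF to CI. It was 1.73-fold higher in TNF than in Dex (0.79 ± 0.11, limma adjusted p = 2.73e-04). The difference between TNF and CI was 0.27 ± 0.12 (95% interval 0.01 to 0.53, adjusted p = 0.13) and did not pass. In Dex it was lower than in CI by 0.52 ± 0.12 (adjusted p = 0.00821). Leaving out either CI array ended this call, at -0.51 without replicate 1 (adjusted p = 0.0586) and -0.53 without replicate 2 (adjusted p = 0.0551), as did leaving out Dex replicate 1 (-0.50) or 2 (-0.44). After quantile normalization the difference was -0.47 and also not called.

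The other probe sets of Acsl4 did not repeat this pattern. The first, at 7.72 to 8.24, differed by -0.03 ± 0.12 (TNF against CI), by -0.24 ± 0.12 (Dex against CI) and, between the other pair, TNF and Dex, by 0.22 ± 0.11, none of them called. Its name is also of the type that can match related transcripts. The second averaged 7.94 over the 8 arrays. It differed by -0.40 ± 0.08 for TNF against CI, the opposite sign to the representative probe set, and fell by 0.61 ± 0.08 for Dex against CI (limma adjusted p over all probe sets = 5.22e-04). Thus all 3 probe sets were lower in Dex than in CI and higher in TNF than in Dex on average, but the side on which TNF lay of CI depended on the probe set. The call for TNF against Dex was lost with the mean of the probe sets (0.40) and with the second highest (0.22).

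The RNA quality measure moved with the models as well. The 3′ minus 5′ difference of the beta-actin control probe sets was highest on average in TNF (0.71, 0.74 and 0.83), and Dex (0.49, 0.49 and 0.75) overlapped with TNF and with CI (0.54 and 0.66). With it as a covariate Acsl4 differed by -0.50 for Dex against CI, just short of the limit. For TNF against Dex Acsl4 was still called, but at 0.58 (limma adjusted p = 0.00947) in place of 0.79. For TNF against CI its difference was 0.08 in place of 0.27. Acsl3 was called in all 3 comparisons with the covariate.

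Promoter sequences of GRCm38.p6 from RefSeq were at hand for 6 of the 10 genes, and the 250 bases before the start site are printed for the 3 genes that fell in Dex against CI. They were searched on both strands for AGGTCA, a half-site of PPAR and its partner RXR, and TGTTCT, a half-site of the glucocorticoid receptor. Matches are in capitals, and a match or its absence is only a description of these letters.
Acsl3, chr1:78657575-78657824, plus strand: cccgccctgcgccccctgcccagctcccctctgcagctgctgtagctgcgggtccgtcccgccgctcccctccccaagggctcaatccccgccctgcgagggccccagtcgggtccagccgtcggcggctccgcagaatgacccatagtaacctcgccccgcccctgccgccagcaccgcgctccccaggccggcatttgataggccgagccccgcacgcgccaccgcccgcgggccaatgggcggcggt
Acsl4, chrX:142390536-142390785, minus strand: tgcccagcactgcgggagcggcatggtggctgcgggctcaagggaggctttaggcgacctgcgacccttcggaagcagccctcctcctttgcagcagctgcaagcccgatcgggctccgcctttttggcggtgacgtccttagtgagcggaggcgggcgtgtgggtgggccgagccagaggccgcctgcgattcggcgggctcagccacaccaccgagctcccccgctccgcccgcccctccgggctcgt
Vldlr, chr19:27216234-27216483, plus strand: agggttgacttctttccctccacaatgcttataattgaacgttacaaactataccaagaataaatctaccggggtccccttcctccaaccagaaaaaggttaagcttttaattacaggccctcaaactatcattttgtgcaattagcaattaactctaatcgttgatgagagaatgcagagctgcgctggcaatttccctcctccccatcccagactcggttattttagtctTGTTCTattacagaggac
Vldlr held 1 TGTTCT, near the start site, and the windows of Acsl3 and Acsl4 held neither motif. Cd36 held 1 AGGTCA, the second window of Vldlr held neither motif, and the windows of Slc27a1 and Acsl1 held none. Of all 32851 promoter windows of this length 14.0% held AGGTCA and 16.1% TGTTCT.

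Among the proteins of fatty acid entry, SLC27A1 (fatty acid transport protein, also an acyl-CoA synthetase) is known to move to the cell surface with insulin in adipocytes. Slc27a1 lay at 8.88 and 9.00 in CI, at 9.61, 9.48 and 9.54 in TNF, and at 9.70, 9.88 and 9.56 in Dex. CI was below both other models without overlap, and TNF and Dex overlapped. The gene rose by 0.61 ± 0.10 in TNF against CI (1.52-fold, limma adjusted p = 0.00111) and by 0.78 ± 0.10 in Dex against CI (1.72-fold, adjusted p = 1.49e-04). TNF and Dex differed by -0.17 ± 0.09 (95% interval -0.36 to 0.02, adjusted p = 0.196). Its other probe set was called in the same directions against CI, at 0.66 ± 0.09 and 0.57 ± 0.09, and lay slightly higher in TNF than in Dex (0.10 ± 0.08, not called). Slc27a1 was thus 1 of 2 members, with Acsl3, whose calls against CI held in each fit with 1 array left out.

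CD36, a fatty acid translocase of the plasma membrane, was measured at 13.59 and 13.53 in CI, at 13.31, 13.27 and 13.26 in TNF, and at 13.47, 13.46 and 13.39 in Dex. The models did not overlap, in the order CI, Dex, TNF, but the differences were small. For TNF against CI the difference was -0.28 ± 0.07 (limma adjusted p = 0.0152), which did not reach the limit of 0.5, with Dex in place of TNF it was -0.12 ± 0.07 (95% interval -0.27 to 0.04), and TNF minus Dex was -0.16 ± 0.06 (95% interval -0.30 to -0.02, adjusted p = 0.0967). Its less bright probe sets had the same order with larger differences. The second differed by -0.48 ± 0.07 for TNF against CI. The third lay between 9.45 and 9.71 in TNF and at 10.49 or higher in CI, and in TNF against CI it fell by 0.91 ± 0.09 (adjusted p over all probe sets = 7.15e-05).

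The fatty acid-binding proteins carry fatty acids in the cytosol. FABP4 is the abundant form of fat cells and FABP5 a related form that adipocytes and macrophages share. Fabp4 lay at 14.37 and 14.40 in CI, at 14.44, 14.39 and 14.38 in TNF, and at 14.45, 14.45 and 14.40 in Dex. All models overlapped, and the 95% intervals were -0.13 to 0.17 for TNF minus CI, -0.10 to 0.20 for Dex minus CI and -0.17 to 0.10 for TNF minus Dex. Because these values sit at the top of the scale, the intervals hold for the measured intensity and may not bound the transcript. None of its 3 other probe sets was called. Both of the less bright ones were spread widely, with 8.52 and 9.72 in different TNF arrays for the dimmest, and their intervals for TNF against CI were -0.66 to 0.35 and -1.02 to 0.26.

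Fabp5 lay at 13.91 and 13.95 in CI, at 13.85, 13.81 and 13.83 in TNF, and at 13.61, 13.64 and 13.62 in Dex. The models did not overlap, in the order CI, TNF, Dex. The difference for Dex against CI was -0.31 ± 0.07 (limma adjusted p = 0.00677) and that for TNF against Dex 0.20 ± 0.06 (adjusted p = 0.032), both under the limit of 0.5, while TNF and CI differed by -0.10 ± 0.07 (adjusted p = 0.308). The other probe set ranged over 13.89 to 13.90 in CI, 13.52 to 13.62 in TNF and 13.13 to 13.16 in Dex. It had the same order, and in Dex against CI it fell by 0.75 ± 0.07 (adjusted p over all probe sets = 3.74e-05).

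At the lipoprotein step, LPL hydrolyses lipoprotein triglyceride, ANGPTL4 inhibits it, and the receptor VLDLR binds triglyceride-rich lipoproteins. Lpl lay at 14.26 and 14.28 in CI, at 14.19, 14.17 and 14.18 in TNF, and at 14.23, 14.25 and 14.19 in Dex. The arrays of CI were highest, and TNF and Dex overlapped. The differences were -0.09 ± 0.07 (95% interval -0.24 to 0.06), -0.05 ± 0.07 (-0.20 to 0.10) and -0.04 ± 0.06 (-0.18 to 0.09) in the order of comparisons used above, and none passed. The other probe set, also near the maximum at 13.95 to 14.15, differed by -0.19, -0.12 and -0.07.

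Angptl4 lay at 11.72 and 11.73 in CI, at 11.49, 11.26 and 11.33 in TNF, and at 11.46, 11.56 and 11.21 in Dex. The arrays of CI were above all others, and TNF and Dex overlapped. For TNF against CI it differed by -0.36 ± 0.11 (limma adjusted p = 0.0291), under the limit of 0.5, and for Dex against CI by -0.31 ± 0.11 (95% interval -0.55 to -0.08, adjusted p = 0.0566). TNF and Dex differed by -0.05 ± 0.09 (95% interval -0.26 to 0.16). The representative probe set of Angptl4, like that of Acsl3, has a name of the type that can also match related transcripts. The second probe set of Angptl4 was called in both comparisons with CI (-1.49 ± 0.32 and -1.36 ± 0.32). It was dim, however, at 4.15 to 6.53, and the CI arrays themselves lay at 5.52 and 6.53.

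Vldlr lay at 11.14 and 11.01 in CI, at 11.05, 10.81 and 10.89 in TNF, and at 10.63, 10.35 and 10.64 in Dex. Dex was below both other models, and CI and TNF overlapped. The gene fell in Dex against CI by 0.54 ± 0.11 (limma adjusted p = 0.00344), but its size dropped under the limit after quantile normalization (-0.48) and when CI replicate 1 (-0.48, adjusted p = 0.0459) or Dex replicate 2 (-0.45) was left out. With the mean of its probe sets the difference was -0.30 (adjusted p = 0.0227), also under the limit. The difference between TNF and Dex was 0.38 ± 0.09 (adjusted p = 0.0146), under the limit, and that between TNF and CI -0.16 ± 0.11 (95% interval -0.39 to 0.07). The representative probe set has a name of the type that can share probes with other sequences. Of its 5 other probe sets, the brightest fell by 0.82 ± 0.18 in Dex against CI (adjusted p over all probe sets = 0.0108), while the others differed by -0.32, -0.17, -0.07 and 0.08 and were not called.

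**Figure D3:**
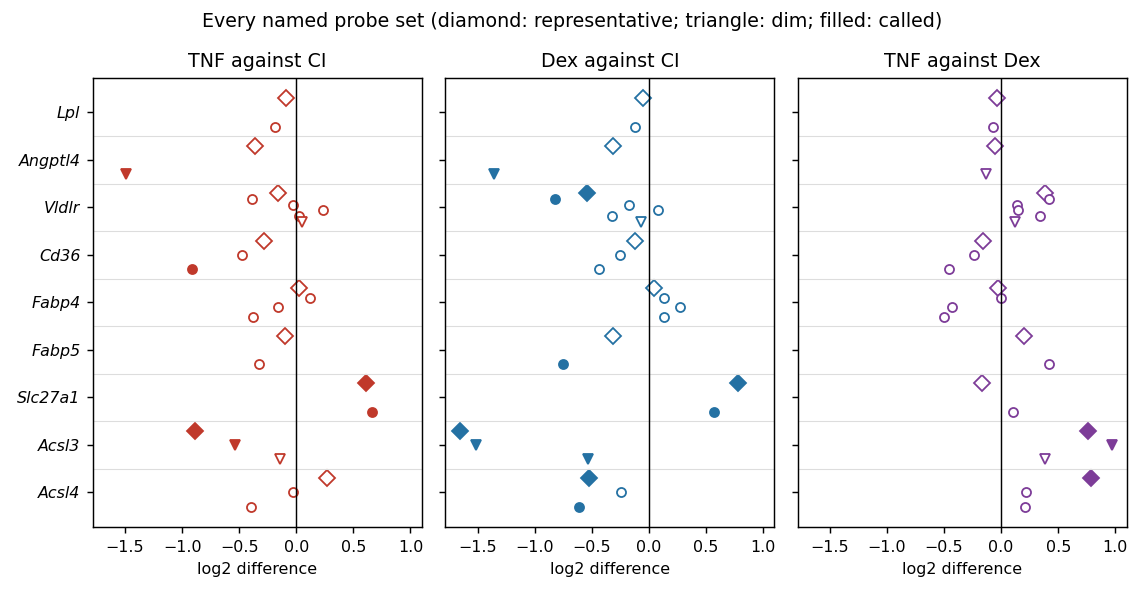
Log2 difference (horizontal axis) of each of the 27 probe sets of the 9 genes in the 3 comparisons, ordered within a gene by mean level. Diamonds are the representative probe sets, triangles probe sets below the median probe set in at least 1 model, and filled symbols were called; Acsl4 in TNF against CI shows values of both signs, from 0.27 to -0.40.

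Over all 18 probe sets that did not represent a gene, 11 shared the sign of the representative probe set when TNF was set against CI, 17 when Dex was, and 17 between TNF and Dex. The number called was 4, 7 and 1. In Cd36, Fabp5 and Angptl4 a less bright probe set was called where the representative one was not, whereas in Acsl3 the less bright probe sets had the smaller differences against CI. The part of brightness in these disagreements was not tested.

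The difference of the measured log2 levels of paired members within each array was compared over the 3 models by an exact two-sided permutation test of all 560 arrangements. Pairs were 3 in number, since those with Acsl1 were not analysed here. Fabp5 minus Fabp4 differed between the models (p = 0.00357, the smallest that the test can give, exact permutation; adjusted p = 0.0107), and its mean differed by -0.12 for TNF minus CI and by -0.35 for Dex minus CI. These values hold for measured intensity only: Fabp4, at 0.06 to 0.20 below the array maximum, had little room to rise, so an unequal change of the transcripts is not shown. Acsl4 minus Acsl3 was higher than in CI by 1.16 in TNF and by 1.13 in Dex, with SDs of 0.02 in CI, 0.23 in TNF and 0.06 in Dex (exact permutation p = 0.0357, adjusted p = 0.0536), and did not pass. Angptl4 minus Lpl did not pass (exact permutation p = 0.143, adjusted p = 0.143), and with Lpl only 0.27 to 0.37 below the array maximum no size is read from this pair.

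Other genes of the same route were taken from a list of 66, of which 61 were measured. In TNF against CI 3 rose and 9 fell, with a median of -0.07. In Dex against CI 4 rose and 8 fell, with a median of 0.04, and between TNF and Dex 4 were higher in TNF and 4 lower, with a median of -0.06. These were 12, 12 and 8 of 61 genes against 8.22%, 9.00% and 7.30% of all genes. The medians over all genes were 0.03, 0.02 and 0.01.

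Among partners of the lipase, Angptl8, which insulin is known to induce in adipose tissue and whose product works with other angiopoietin-like proteins, lay at 8.83 and 9.07 in CI, at 7.19, 7.87 and 7.78 in TNF, and at 6.38, 6.63 and 6.60 in Dex. It fell by 1.34 ± 0.17 in TNF and fell by 2.42 ± 0.17 in Dex, both against CI (limma adjusted p = 2.95e-04 and 2.28e-06). It was also called as higher in TNF than in Dex, by 1.08 ± 0.15 (limma adjusted p = 4.16e-04). The levels in TNF and Dex were below the median gene (7.89 to 7.93 in these arrays), where the size of a difference is uncertain. The endocytic lipoprotein receptor Lrp1 lay at 10.33 and 10.19 in CI, at 11.16, 11.16 and 11.38 in TNF, and at 10.54, 10.56 and 10.55 in Dex, and rose in TNF by 0.98 ± 0.09 against CI and 0.69 ± 0.08 against Dex. None of the 7 other fatty acid-binding protein genes passed limma's test in any comparison, and the count at an unadjusted p under 0.05 was 1, 0 and 1 in the same order.

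Among the other acyl-CoA synthetases, Acss2, which activates acetate, lay at 11.62 and 11.67 in CI, at 11.11, 11.14 and 11.21 in TNF, and at 10.20, 10.23 and 10.19 in Dex. In Dex it fell by 1.44 ± 0.07 against CI (limma adjusted p = 1.61e-07), was higher in TNF than in Dex by 0.95 ± 0.06, and differed by -0.49 ± 0.07 for TNF against CI, under the limit. The medium-chain synthetase genes Acsm3 and Acsm5 rose in Dex against CI by 1.15 ± 0.11 and 1.46 ± 0.13, and were lower in TNF than in Dex by 0.97 ± 0.10 and 0.94 ± 0.12. Both lay below the median gene in every model. The acyl-CoA-binding gene Acbd4 fell by 0.89 ± 0.07 in TNF and 0.67 ± 0.07 in Dex against CI. The sterol-sensing receptor Nr1h3, a regulator of lipid genes, fell by 0.81 ± 0.07 and 0.62 ± 0.07. The calls given here for Angptl8, Lrp1, Acss2, Acbd4 and Nr1h3 held in each fit with 1 array left out and under both other scalings, as did those for Acsm3 and Acsm5 in Dex against CI and in TNF against Dex.

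The remaining called genes of the list are named after their values were seen. For TNF against CI they were the caveola genes Cav1 (-0.74), Cav2 (-0.51) and Cavin1 (-0.63), the lipase maturation factor Lmf1 (-0.54), the transport protein Slc27a4 (-0.56), Acsl5 (0.51), Acsm5 (0.52) and the adipogenic receptor Pparg (-0.52). Of these only Cav1 was called in each fit with 1 array left out. The others were lost without at least 1 array, for example Lmf1 without CI replicate 2 (-0.44) or TNF replicate 1 (-0.48), Cav2 without CI replicate 1 (-0.47) or TNF replicate 1 (-0.49), Cavin1 without CI replicate 2 (-0.57), Slc27a4 without TNF replicate 1 (-0.46), Acsl5 without CI replicate 1 (0.49) or TNF replicate 3 (0.49), Acsm5 without CI replicate 2 (0.31) or TNF replicate 1 (0.45), and Pparg when TNF replicate 2 (-0.48), TNF replicate 3 (-0.49) or CI replicate 1 (-0.49) was left out. For Dex against CI they were Pparg (-0.61), its partner Rxra (0.77), the glucocorticoid receptor Nr3c1 (-0.69), the thioesterase genes Acot13 (0.60) and Them4 (-0.63), and Apoc1 (-0.51), of which Apoc1 was lost without CI replicate 2 (-0.40), Dex replicate 1 (-0.48) or Dex replicate 3 (-0.42). For TNF against Dex they were Rxra (-0.75), Apoc1 (0.57), lost without Dex replicate 3 (0.48), and Acsbg1 (-0.51), lost without TNF replicate 2 (-0.49) or Dex replicate 2 (-0.47). Scaling and the RNA quality covariate ended some of these calls too. Quantile normalization did so in TNF against CI for Lmf1 (-0.47), Cav2 (-0.48), Slc27a4 (-0.50), Acsm5 (0.46) and Pparg (-0.47), and in Dex against CI for Apoc1 (-0.48). Centring arrays on the median did so in TNF against CI for Acsl5 (0.46) and Acsm5 (0.47). The covariate did so in TNF against CI for Cavin1 (-0.49, limma adjusted p = 0.0611), Acsl5 (0.45) and Pparg (-0.48), and in TNF against Dex for Acsbg1 (-0.48).

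**Figure D4:**
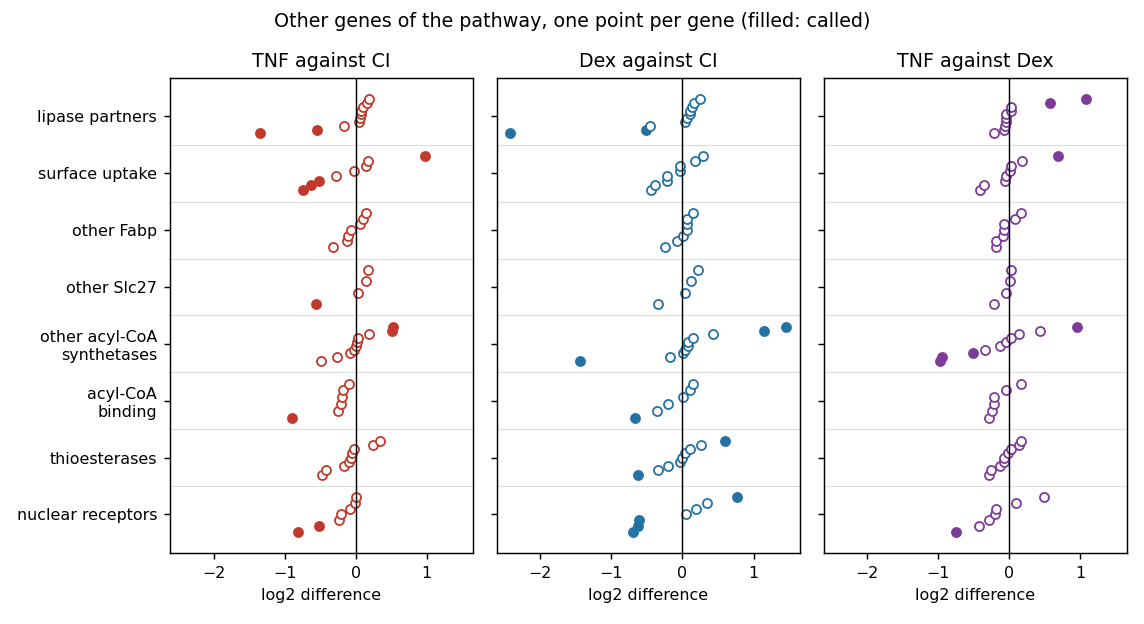
Log2 difference (horizontal axis) of the 61 other genes of the route in the 3 comparisons, by role, with filled points for called genes. The point farthest from 0 is Angptl8 in Dex against CI, at -2.42. None of the other fatty acid-binding protein genes is filled, and all of them lay below the median gene in every model.

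The genes most similar in pattern to the members with the largest differences were found from log2 levels centred on each gene's own mean, by the mean absolute distance over the 8 arrays. For Acsl3, the member with the largest difference in both comparisons with CI, they were Dipk1a (0.06 log2 units from it on average), Mmd (0.07) and Mylip (0.08), against a median of 0.56 over all genes. In Dex against CI Dipk1a differed by -1.63, Mmd by -1.63 and Mylip by -1.61. For Acsl4, the member with the largest difference for TNF against Dex, they were 4732440D04Rik (0.06), Abi2 (0.07) and Tead2 (0.07), against a median of 0.34. Their differences for TNF against Dex were 0.67, 0.67 and 0.72.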

How the data were processed

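Labelled cRNA made from the RNA of 8 samples was hybridised to Affymetrix mouse genome arrays. The authors deposited linear intensities per probe set (6.14 to 24273.6); their methods give RMA, run in affyPLM, for background correction and normalization. Whether these intensities are RMA values with the logarithm removed is not given in the sources used here. Here log2 was taken with no pseudocount. Precision is limited by the number of arrays. Gene names came from the platform annotation of GEO (34958 with 1 symbol, 932 with several, 9211 with none), 64 controls were left out, and a gene was its single-symbol probe set with the highest mean, which gave 18193 genes.

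The 3 models, taken from the sample titles, were fitted together in limma 3.58.1 (R 4.3.3; lmFit, eBayes, two-sided), with the threshold of the study's methods. Tested on simulated data with 18193 genes, the fit recovered 98% of genes changed by 0.75 on the log2 scale between TNF and CI, 99% between Dex and CI and 98% between TNF and Dex. By rule, all members and up to 4 called genes of the list per comparison were named. The 3 genes most like the member with the largest difference were named as well. The rule also covered the marker genes, but only some of them are named. The other called genes of the list were named after their values were seen. Members and lists were chosen with earlier results of these data known. Alternatives were other scalings, a pseudocount of 16, a filter on low genes, other probe set rules, all probe sets tested singly, a replicate block, a fit of only 2 groups, eBayes with trend and robust, array weights, 2 other thresholds, an RNA quality covariate and leaving out each array. Figures were drawn with Python 3.11.15.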

Additional observations from a re-analysis of the deposited data

How the results depend on the processing

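The number of members called was 2, 4 and 2 for TNF against CI, Dex against CI and TNF against Dex. It was 2 for Dex against CI after quantile normalization. With the mean of all probe sets it was 4 for TNF against CI, where Angptl4 (-0.93) and Cd36 (-0.55) gained calls. It was 1 for TNF against Dex, where Acsl4 (0.40) lost its call. For Dex against CI it was again 4 under that setting, but Vldlr (-0.30) and Acsl4 (-0.46) lost their calls and Angptl4 (-0.84) and Fabp5 (-0.53) gained them. With the second highest probe set it was 3, 5 and 1 in the order of comparisons above. Angptl4, through its dim probe set, gained calls against CI in TNF (-1.49) and Dex (-1.36), and Fabp5 gained one in Dex against CI (-0.75). Acsl4 lost its calls in Dex against CI (-0.24) and in TNF against Dex (0.22) under that setting. With no limit on the difference the number was 4, 5 and 4, and with a limit of 1 it was 0, 1 and 0. For the other genes of the list the number was 12, 12 and 8. It was 7 for TNF against CI after quantile normalization, 5 for TNF against Dex with the filter on low genes, which left 42 of 61 genes, 19, 21 and 20 with no limit, and 1, 4 and 1 with a limit of 1. With 1 array left out the number of members called for Dex against CI ran from 2 (without CI replicate 1 or Dex replicate 2) to 4, and was 2 each time in both other comparisons. The cause was not tested where the construction of the setting does not give it.

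Acsl4 minus Acsl3 passed with a pseudocount of 16 (exact permutation adjusted p = 0.0429) and with the second highest probe set (adjusted p = 0.00536), and its adjusted p ran from 0.0143, without TNF replicate 1, to 0.214 with 1 array left out. That of Fabp5 minus Fabp4 ran from 0.0143 to 0.0429. Values that changed sign were, in TNF against CI, Fabp4 (0.02) after quantile normalization (-0.01), with arrays centred on the median (-0.03) and with the mean of all probe sets (-0.10), and Acsl4 (0.27) with the mean of all (-0.05) and with the second highest (-0.03). For TNF against Dex they were Slc27a1 (-0.17) with the second highest probe set (0.10), Angptl4 (-0.05) with the RNA quality covariate (0.11) and without Dex replicate 2 (0.02; -0.15 to 0.02 over the fits with 1 array left out), and Fabp4 (-0.03) with the covariate (0.01). None of these was called in either setting. Among all genes called, the split for TNF against CI was 545 higher and 951 lower, 618 and 756 after quantile normalization, and 443 and 1180 with arrays centred.

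With the replicate number as a block the number of members called was 2, 4 and 2 and that of the other genes 12, 11 and 8. Same-numbered arrays did not deviate together throughout (r of 0.05 and -0.06 for CI with TNF, 0.02 and -0.02 for CI with Dex, 0.33, -0.09 and 0.21 for TNF with Dex). For arrays of TNF and Dex with different numbers r ran from -0.38 to 0.28. The 2 CI arrays deviate from their mean in mirror image, so their values cannot show a pairing. Whether arrays of the same number share a batch or a culture was not tested.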
